A study of Mus musculus with 56 samples.

Results

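The genes described here carry out the steps from glycerol-3-phosphate or monoacylglycerol to triglyceride in mouse liver. They were chosen by name, as the 10 genes Gpam, Gpat4, Agpat2, Agpat3, Lpin1, Lpin2, Lpin3, Dgat1, Dgat2 and Mogat1, and all 10 were found among the 25415 rows of the gene table and tested with the 25318 rows that could be used. The livers came from 56 female C57BL/6J mice of 9 weeks without genetic modification, after 7 days of daytime-restricted feeding (DRF, 28 livers) or nighttime-restricted feeding (NRF, 28 livers), the reference regimen. Before that, all mice had been kept for 7 days under 12 h of light per day with chow available at all times. The 14 groups, of 4 animals each, were sampled at 0, 4, 8, 12, 16, 20 and 24 h after the lights came on (zeitgeber time, ZT). The measurement was bulk RNA sequencing of whole liver, so more cells of a type and more RNA per cell cannot be told apart.

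The glycerol-3-phosphate pathway adds fatty acids to a glycerol backbone in steps. Glycerol-3-phosphate acyltransferases (Gpam at the mitochondrial outer membrane, Gpat4 at the endoplasmic reticulum) make lysophosphatidic acid, acylglycerophosphate acyltransferases (Agpat2, Agpat3) make phosphatidic acid, and the lipins remove its phosphate to give diacylglycerol, which Dgat1 and Dgat2 acylate to triglyceride. Mogat1 reaches diacylglycerol by another route, from monoacylglycerol. Lipin 1 is also known as a transcriptional coactivator of fasting genes in liver, and the lipid products serve both storage and the export of very-low-density lipoprotein.

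Levels are given as scaled counts, rebuilt from the deposited values. A scaled count is proportional to a gene's counts in its library, 1 unit stood for 303.9 to 723.0 recovered counts, and the libraries' totals lay between 717758 and 898743 scaled counts. These carry no length correction, so they compare livers and not genes. Regimens were compared with limma on log2(scaled count + 1), p-values were adjusted over all 25318 rows by the Benjamini-Hochberg method, and an adjusted p under 0.05 was called. As a check of the regimens, the clock genes Arntl, Nr1d1, Dbp and Per2 had fitted peaks 10.6 ± 0.319 h, 10.9 ± 0.895 h, 10.2 ± 0.731 h and 11.8 ± 0.539 h (SE) apart between DRF and NRF. The library NRF ZT16 replicate 3 lay farthest from its group over all genes, with a root-mean-square deviation of 0.372 (log2). Hepatocyte markers were high in every liver, with Ttr between 3296 and 5847 and Apoa1 between 1318 and 4421 scaled counts. Of 8 adipocyte markers 3 were tested, and Adipoq, Plin1, Lep, Retn and Cidea were not. Cfd lay between 0 and 0.0657, Fabp4 between 0.189 and 1.42 and Lipe between 4.65 and 13.8.

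The windows before the RefSeq transcription starts are shown for 4 genes with a rhythm in both regimens, Gpam, Agpat2, Lpin1 and Lpin2 (GRCm38.p6, 5′ to 3′ on the gene's strand, the 250 bases before the start). The Gpam window, the most upstream of its 2 RefSeq starts, is chr19:55127239-55127488 on the minus strand, the Agpat2 window chr2:26604418-26604667 on the minus strand, the Lpin1 window chr12:16610967-16611216 on the minus strand, and the Lpin2 window, the most upstream of its 3 RefSeq starts, chr17:71183282-71183531 on the plus strand. None of the 4 windows holds a base of a GENCODE vM21 exon. Capitals mark matches, on either strand, to any of 6 motifs.
Gpam: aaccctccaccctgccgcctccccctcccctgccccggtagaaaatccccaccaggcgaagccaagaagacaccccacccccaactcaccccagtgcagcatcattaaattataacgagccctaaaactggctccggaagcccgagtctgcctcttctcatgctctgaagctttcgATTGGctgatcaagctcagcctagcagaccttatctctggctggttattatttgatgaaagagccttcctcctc
Agpat2: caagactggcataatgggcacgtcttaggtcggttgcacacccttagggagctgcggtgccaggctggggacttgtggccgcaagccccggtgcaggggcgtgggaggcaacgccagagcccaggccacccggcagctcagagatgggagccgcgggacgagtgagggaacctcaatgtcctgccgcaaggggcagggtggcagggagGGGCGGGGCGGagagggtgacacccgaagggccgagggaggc
Lpin1: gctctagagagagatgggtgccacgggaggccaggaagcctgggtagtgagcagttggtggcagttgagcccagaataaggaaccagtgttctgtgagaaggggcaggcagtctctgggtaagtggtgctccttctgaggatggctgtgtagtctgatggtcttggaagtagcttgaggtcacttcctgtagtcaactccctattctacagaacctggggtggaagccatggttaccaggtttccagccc
Lpin2: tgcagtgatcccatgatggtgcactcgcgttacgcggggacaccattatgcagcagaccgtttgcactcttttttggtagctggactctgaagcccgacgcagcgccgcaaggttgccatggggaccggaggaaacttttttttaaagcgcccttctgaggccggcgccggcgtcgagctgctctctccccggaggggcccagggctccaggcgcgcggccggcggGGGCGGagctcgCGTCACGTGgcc
The motifs searched were the E-box CACGTG, the D-box TTATGNAA, the cyclic AMP response half-site TGACG, the sterol response-like TCACNCCAC, the CCAAT box and the GC box GGGCGG. The Lpin2 window holds an E-box 9 bases before the start, which overlaps a TGACG match by 2 bases, and a GC box. An E-box is in 6.02% and TGACG in 17.8% of the 32851 RefSeq windows of this length. The Agpat2 window holds overlapping GC boxes, a motif found in 32.7% of windows, and the Gpam window a CCAAT box, found in 33.8%. The window of the other Gpam start holds TGACG matches and a GC box. None of the 6 motifs matched in the Lpin1 window, which says only that these letters are not in it. RefSeq windows were found for 7 of the 10 genes, the others being Gpat4, Dgat1 and Dgat2.

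Per kilobase of exon, the 10 genes spanned a wide range of levels. Dgat2 was highest with 199 ± 41.8 scaled counts per kb (SD, n = 56 livers), followed by Gpam with 130 ± 94.0, Agpat2 with 83.7 ± 25.1, Gpat4 with 18.7 ± 4.55, Agpat3 with 12.1 ± 1.89, Lpin1 with 6.93 ± 5.85, Lpin2 with 4.12 ± 1.81, Dgat1 with 2.39 ± 0.427, Lpin3 with 0.761 ± 0.217 and Mogat1 with 0.406 ± 0.232 per kb. The full ranges over the 56 livers overlapped in 8 of 9 pairs of neighbours in this order, all but Dgat1 and Lpin3. The Agpat2 range reached that of Gpat4 through NRF ZT16 replicate 3 alone, which held 27.7 per kb of Agpat2 where Gpat4 went up to 31.6. The length used for Gpam, 3832 bases, was searched on the values and is shorter than its annotated exons of 6664 bases, which makes its place in the order uncertain. The same length enters the rebuilding of the Gpam scaled counts, so its fold differences, log2 differences and amplitudes below rest on it too.

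**Figure D1:**
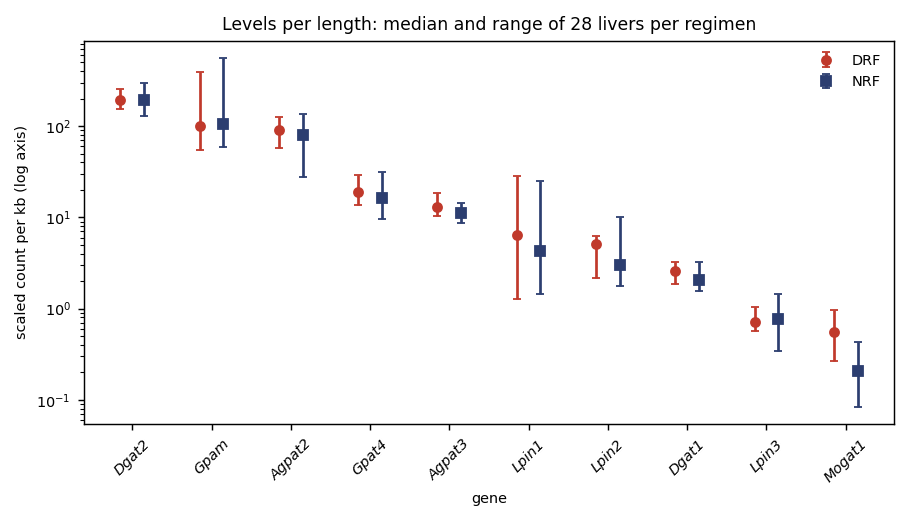
Scaled counts per kb of exon (log axis) for each gene, as the median (points) and the full range (bars) of 28 livers under DRF (red) and 28 under NRF (blue). Dgat2, Gpam and Agpat2 lie above the others and Mogat1 has the lowest NRF median, 0.209 per kb.

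All 10 genes differed between the regimens at some time of day, where 42.7% of all rows tested did, and without the livers numbered 4 the call of Gpat4 was lost (adjusted p = 0.0611, limma). Over the 7 times, 38 of 70 gene-by-time comparisons were called, 27 with DRF higher and 11 with DRF lower, against 15.4% over all rows, 7.9% higher and 7.51% lower. Of the 38 calls, 23 held in each of the 4 fits that left out the livers of 1 replicate number, and 15 were lost in at least 1 of them. The share of calls over all rows that held in these fits was not computed. In 39 of 70 the groups of 4 livers did not overlap, against 18.1% over all rows. A 24-h rhythm was called for 9 of the 10 genes under NRF (43.7% of all rows), all but Mogat1, and for 5 of 10 under DRF (35.1% of all rows), namely Gpam, Agpat2, Agpat3, Lpin1 and Lpin2. The rhythm differed between regimens by clock time in the same 9 genes, all but Mogat1 (38.9% of all rows).

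**Figure D2:**
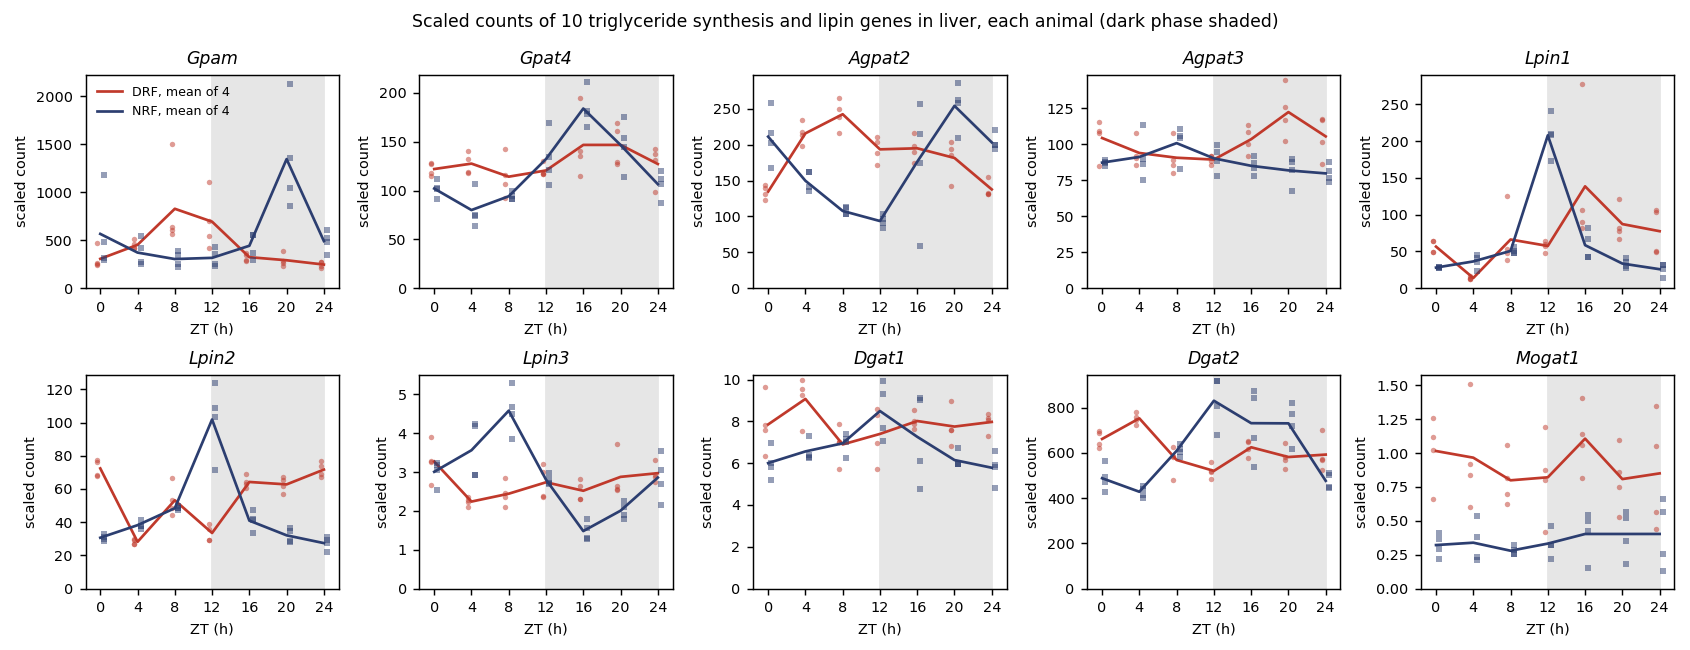
Scaled counts of each gene (linear axis from 0) against ZT, with 1 point per liver for DRF (red circles) and NRF (blue squares) and lines through the means of 4. The Gpam means peak at ZT8 under DRF and at ZT20 under NRF, Lpin1 and Lpin2 peak at ZT12 under NRF, and the Mogat1 means are higher under DRF at every time.

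Gpam (ENSMUSG00000024978, chr19:55067268-55127238, minus strand, GRCm38) encodes the mitochondrial acyltransferase that starts the pathway. At ZT20 its scaled counts were 1041, 2131, 855 and 1356 under NRF and 229, 267, 279 and 391 under DRF. The groups were apart, with NRF 4.62-fold higher by the means (log2 difference -2.14 ± 0.34 SE, adjusted p = 5.55e-06, limma). At ZT8 the order was the other way, with 563, 612, 1503 and 633 under DRF against 346, 392.1, 254 and 225 under NRF (log2 difference 1.35 ± 0.34, adjusted p = 0.00381, limma). DRF ZT8 replicate 3 stood far above its group, and without the livers numbered 3 the ZT8 difference had an adjusted p of 0.0595 (limma). The fitted peaks were at ZT 9.13 ± 1.07 h under DRF and ZT 19.9 ± 0.793 h under NRF (SE), a phase shift of 10.8 ± 1.34 h. Its fitted amplitude was 281 ± 78.4 scaled counts under DRF and 366 ± 81.3 under NRF, and the difference was not called (adjusted p = 0.749 over the rows rhythmic in both regimens, from a cosinor contrast fitted on all 56 livers).

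Gpat4 (ENSMUSG00000031545, chr8:23171265-23208346, minus strand), the acyltransferase of the endoplasmic reticulum, had a large rhythm under NRF and little under DRF. Under NRF its means ran from 80.1 ± 18.6 at ZT4 to 184 ± 19.6 at ZT16 (SD, n = 4), a 2.30-fold range. Under DRF they ran from 114 ± 21.0 at ZT8 to 147 ± 34.1 at ZT16, a 1.28-fold range, and the rhythm did not pass the test (adjusted p = 0.0763, limma), although it did without the livers numbered 4 (0.0262) and in the values as deposited (0.0019). At ZT4 the livers held 132, 119, 118 and 141 scaled counts under DRF and 63.6, 74.4, 107 and 75.5 under NRF, groups apart, with a log2 difference of 0.69 ± 0.15 (adjusted p = 0.000408, limma). That was the only one of the 7 times at which Gpat4 was called.

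Agpat2 (ENSMUSG00000026922, chr2:26593057-26604417, minus strand) encodes the acyltransferase whose loss causes generalized lipodystrophy. Its course was like that of Gpam (Pearson's r = 0.729 over the 14 group means, a description). At ZT8 its scaled counts were 238, 216, 266 and 250 under DRF and 103, 113, 111 and 103 under NRF, and at ZT12 they were 189, 210, 204 and 172 under DRF and 90.6, 97.1, 83.6 and 103 under NRF. DRF was higher without overlap at both times, by log2 differences of 1.16 ± 0.20 (adjusted p = 4.43e-05, limma) and 1.04 ± 0.20 (adjusted p = 0.000168, limma). At ZT0 the order turned, with 123 to 144 under DRF and 168 to 258 under NRF (log2 difference -0.63 ± 0.20, adjusted p = 0.024, limma), a call lost without the livers numbered 1, 2 or 4 (0.0662, 0.152 and 0.103) and in the values as deposited (0.239). The DRF rhythm was not called without the ZT24 livers, without the ZT0 livers or in the values as deposited (adjusted p = 0.0522, 0.058 and 0.0555, limma). The fitted peaks, ZT 9.62 ± 0.867 h and ZT 21.2 ± 0.469 h, were 11.5 ± 0.985 h apart. NRF ZT16 replicate 3 held 59.0 against 174 to 257 in the other livers of its group. Without that library, Agpat2 was also called at ZT4, ZT20 and ZT24 (adjusted p = 0.00029, 0.0011 and 0.00019, limma, an alternative chosen after seeing the data).

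Agpat3 (ENSMUSG00000001211, chr10:78269178-78352489, minus strand), a relative that also acylates lysophospholipids for membranes, varied little. Its means lay between 79.7 ± 6.19 and 122 ± 17.8 scaled counts over the 14 groups. At ZT20 the livers held 102, 145, 126 and 116 under DRF and 67.7, 89.7, 87.6 and 82.3 under NRF, apart, with a log2 difference of 0.57 ± 0.11 (adjusted p = 0.000234, limma). Its fitted peaks at ZT 20.2 ± 0.770 h under DRF and ZT 8.15 ± 1.28 h under NRF lay about opposite to those of Gpam and Agpat2. The NRF rhythm was small (0.27 peak to trough on the log2 scale, adjusted p = 0.0331, limma) and was lost in the exact rank test (adjusted p = 0.302), in the values as deposited (0.373), without the ZT24 livers (0.073) and without the livers numbered 1 or 4 (0.345 and 0.0995, limma).

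Lpin1 (ENSMUSG00000020593, chr12:16535669-16610966, minus strand) had the widest range of the 10 genes, 14.9-fold between its highest and lowest group means. Under NRF it rose sharply at ZT12, the end of the light phase and of the fast, to 209, 173, 208 and 241 scaled counts, from 47.9, 50.3, 56.1 and 48.3 at ZT8. The DRF livers at ZT12 held 57.0, 60.4, 47.7 and 64.7, all below, and the difference was -1.83 ± 0.30 on the log2 scale (adjusted p = 1.06e-05, limma). Its lowest level was under DRF at ZT4, with 12.7, 13.9, 12.3 and 16.8 against 41.7, 44.8, 23.3 and 35.9 under NRF (log2 difference -1.29 ± 0.30, adjusted p = 0.00112, limma). From ZT16 to ZT24 and at ZT0 the DRF means were the higher ones, by 2.01-fold at ZT0, 2.37-fold at ZT16, 2.60-fold at ZT20 and 3.0-fold at ZT24, each called. At ZT16 the groups overlapped and the DRF mean rested on replicate 1, which held 277 against 81.5 to 106 in the others. Without the livers numbered 1 the ZT16 difference was not called (adjusted p = 0.302, limma), and the ZT0 difference was not called without those numbered 2 or 4 (0.104 and 0.124). The fitted peaks at ZT 16.9 ± 0.975 h under DRF and ZT 12.1 ± 0.779 h under NRF were 4.85 ± 1.25 h apart, between the study's phase-locked range (0 to 4 h) and its phase-inverted range (8 to 12 h).

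Lpin2 (ENSMUSG00000024052, chr17:71182560-71249817, plus strand), another lipin expressed in liver, had a similar course. Under NRF it held 71.6, 104, 124 and 109 scaled counts at ZT12 and between 21.9 and 49.4 in the NRF livers of every other time. At ZT12 the DRF livers held 36.1, 38.9, 29.5 and 29.3, apart from NRF, a difference of -1.56 ± 0.12 (log2, adjusted p = 3.74e-14, limma). At ZT0 the order was reversed, with 77.3, 68.4, 67.8 and 76.0 under DRF and 32.8, 28.5, 29.9 and 31.3 under NRF (log2 difference 1.21 ± 0.12, adjusted p = 6.9e-11, limma). The repeat of that clock time at ZT24 gave 67.4 to 76.9 and 21.9 to 31.2 (log2 difference 1.37 ± 0.12, adjusted p = 3.41e-12, limma). Lpin2 was called at 6 of 7 times, in 4 with DRF higher and in 2 with DRF lower. Its fitted peaks at ZT 20.6 ± 0.913 h and ZT 11.4 ± 0.644 h were 9.23 ± 1.12 h apart.

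Lpin3 (ENSMUSG00000027412, chr2:160880670-160906002, plus strand), the third lipin, was low and had another course. At ZT8 the NRF livers held 4.68, 4.50, 5.30 and 3.85 scaled counts and the DRF livers 2.35, 2.11, 2.45 and 2.86, apart, with a log2 difference of -0.70 ± 0.11 (adjusted p = 5.59e-06, limma). At ZT16 NRF was the lower, with 1.28, 1.56, 1.31 and 1.78 against 2.64, 2.31, 2.82 and 2.30 (log2 difference 0.51 ± 0.11, adjusted p = 0.000596, limma). Under NRF the means covered a 3.10-fold range and under DRF a 1.46-fold range, and the DRF rhythm did not pass (adjusted p = 0.139, limma), although it did in the values as deposited (0.0431). Over the 14 group means, Pearson's r was 0.876 between Lpin1 and Lpin2, 0.0677 between Lpin1 and Lpin3 and 0.220 between Lpin2 and Lpin3, where the points share their libraries.

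Dgat2 (ENSMUSG00000030747, chr7:99153658-99182719, minus strand), the acyltransferase that prefers newly made fatty acids, had a narrower range under DRF around a daily mean whose difference was not called (log2 difference -0.027 ± 0.051, adjusted p = 0.831, limma). The means over 28 livers were 615 ± 82.6 under DRF and 614 ± 164 under NRF (SD). At ZT4 the livers held 748, 723, 759 and 783 under DRF and 455, 442, 414 and 401 under NRF, apart (log2 difference 0.81 ± 0.11, adjusted p = 1.36e-07, limma). At ZT12 they held 516, 519, 562 and 486 under DRF and 679, 809, 917 and 920 under NRF, apart in the other direction (log2 difference -0.67 ± 0.11, adjusted p = 8.41e-06, limma). The group means covered a 1.94-fold range under NRF and 1.45-fold under DRF, and the DRF rhythm was not called (adjusted p = 0.0759, limma). That call turned on the processing, since the rhythm passed with median-of-ratios scaling (0.0454), with the length trend removed (0.0444), without the ZT24 livers (0.0266) and without NRF ZT16 replicate 3 (0.0348).

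Dgat1 (ENSMUSG00000022555, chr15:76502015-76511953, minus strand), which acts more on fatty acids taken up from outside, was low and nearly flat, with group means between 5.78 ± 0.732 and 9.07 ± 1.05 scaled counts. It was called at ZT4, with 9.52, 7.56, 9.24 and 9.96 under DRF and 6.24, 7.31, 6.38 and 6.31 under NRF (log2 difference 0.41 ± 0.13, adjusted p = 0.0163, limma), and at ZT24. The ZT4 call was lost without the livers numbered 1 or 4 (0.117 and 0.115), and the ZT24 call without those numbered 2, 3 or 4 (0.0865, 0.0571 and 0.173). Its NRF rhythm was called (adjusted p = 0.00244, limma) with a peak to trough of 0.38 on the log2 scale.

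Mogat1 (ENSMUSG00000012187, chr1:78510991-78538173, plus strand), the acyltransferase of the monoacylglycerol route, was the one gene of the 10 with no called rhythm in either regimen, and its mean was higher under DRF at each time. At ZT0 it held 1.26, 1.12, 1.02 and 0.658 scaled counts under DRF and 0.363, 0.407, 0.293 and 0.221 under NRF. At ZT16 it held 1.14, 1.06, 0.818 and 1.41 under DRF and 0.543, 0.421, 0.151 and 0.496 under NRF, and the groups were apart at both times. The difference was called at ZT0, ZT4, ZT8, ZT12 and ZT16, and at ZT0 and ZT16 also in each fit that left out the livers of 1 replicate number. At ZT20 and ZT24 the log2 differences of 0.37 and 0.39 were not called. Over all times the mean was 0.910 ± 0.292 under DRF and 0.354 ± 0.143 under NRF (SD, n = 28), a ratio of 2.57, and 21 of 28 DRF livers lay above every NRF liver. The log2 difference of the daily means was 0.49 ± 0.052 (adjusted p = 2.54e-09, limma), which understates the change of a gene this low because 1 was added before the logarithm. The counts behind it were 46 to 886 recovered counts per liver. GENCODE places exons of BC035947 on the opposite strand over 12.8% of the exon bases of Mogat1, and how strand was used in counting is not given in the sources used here.

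**Figure D3:**
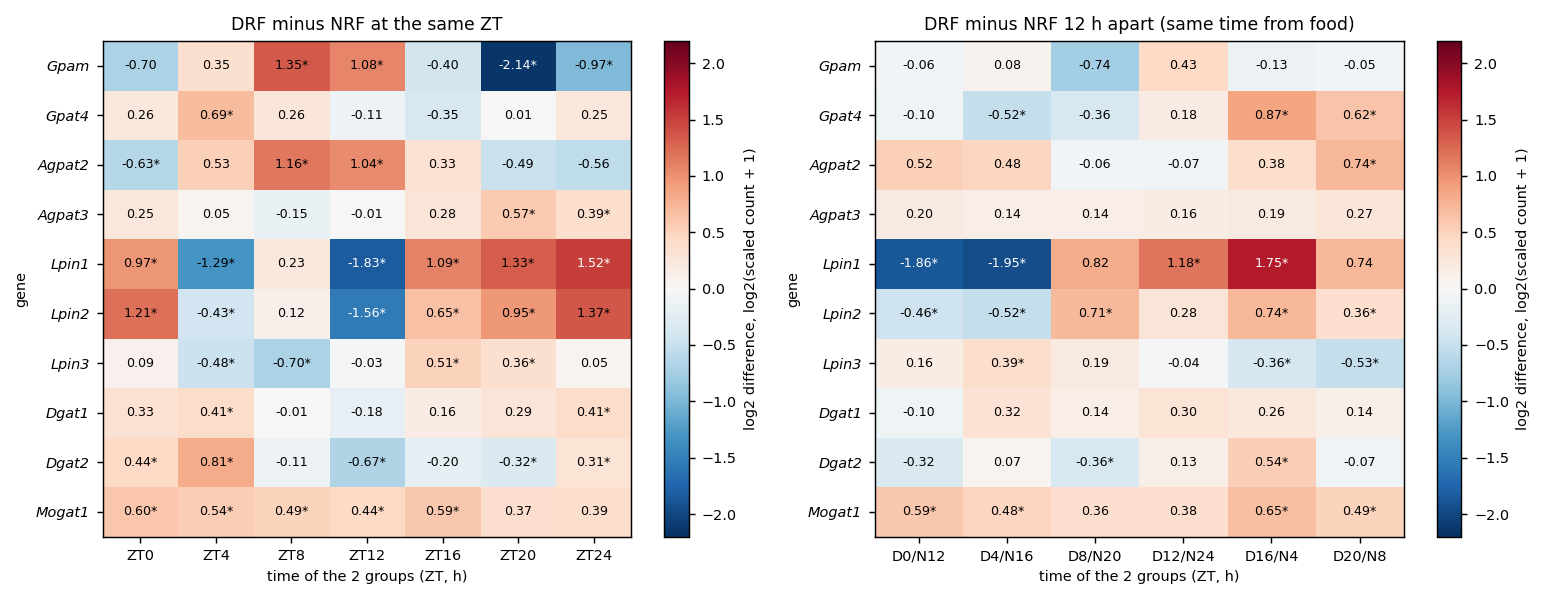
Differences between DRF and NRF on the log2(scaled count + 1) scale for each gene, at the same ZT (left) and between groups 12 h apart that had spent the same time from food (right, D for DRF and N for NRF with their ZT), where red is higher under DRF and an asterisk marks an adjusted p under 0.05. Mogat1 is above 0 in every column, while the Gpam row holds 4 asterisks on the left and 0 on the right.

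The daily mean was called higher under DRF for 4 of the 10 genes and lower for 0, where 4.14% of all rows were called higher and 2.71% lower. Besides Mogat1, these were Agpat2 (log2 difference 0.31 ± 0.082, adjusted p = 0.0104, limma), Agpat3 (0.17 ± 0.042, adjusted p = 0.00596, limma) and Dgat1 (0.16 ± 0.050, adjusted p = 0.031, limma). On the linear scale, the plain means of these 3 genes over 28 livers were 1.09, 1.15 and 1.16 times as high under DRF as under NRF. Both kinds of mean use the ZT0 and ZT24 livers. Plain means give their shared clock time more weight, while the fitted daily means adjust for time of day. The fitted linear means of Agpat2 were 191 under DRF and 163 under NRF. The calls of Agpat2, Agpat3 and Dgat1 were each lost when livers of 1 replicate number were left out, down to 1 call of 10 without those numbered 1, while Mogat1 kept its call in every such fit. The median over the 10 genes was 0.16, against -0.0017 over all rows.

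Next, the regimens were set side by side by the time from food, with DRF at a given ZT against NRF 12 h later, to ask which differences remain once feeding time is matched. Of 60 gene-by-pair comparisons 22 were called, 14 with DRF higher and 8 lower, against 10.7% over all rows (5.83% higher and 4.9% lower), and in 25 of 60 the groups did not overlap (15.0% over all rows). Of the 22 calls, 10 held in each of the 4 fits without the livers of 1 replicate number, a share not computed over all rows. Gpam, Agpat3 and Dgat1 had 0 called pairs, while Gpam had 4 called times, Agpat3 2 and Dgat1 2 by the clock. The Gpam pair after 8 h (log2 difference -0.74, adjusted p = 0.151, limma) includes DRF ZT8 replicate 3, and without the livers numbered 3 it was called, lower under DRF (-1.26, adjusted p = 0.0148, limma), as it was in the values as deposited (0.0237). The Dgat1 pair after 4 h was called without the livers numbered 2 (0.0325), and its pair after 16 h in the values as deposited (0.0429). In those values Agpat3 was called, higher under DRF, after 16 h and 20 h (0.0195 and 0.0018, limma). Its rhythm by feeding time differed there too (0.0017, limma). Among the calls by the clock, Gpam at ZT8, ZT12 and ZT24, Agpat3 at ZT24 and Dgat1 at ZT4 and ZT24 were each lost without the livers of at least 1 replicate number. The 24-h rhythm by feeding time differed in 5 of 10 genes (34.4% of all rows), Gpat4, Lpin1, Lpin2, Lpin3 and Dgat2. The Lpin2 call was lost without the livers numbered 2 (adjusted p = 0.127, limma). From the start of the food phase the fitted Gpam peak came after 9.13 ± 1.07 h under DRF and 7.91 ± 0.793 h under NRF, and the rhythm difference had an adjusted p of 0.679 (limma). For Agpat2 the peaks came after 9.62 ± 0.867 h and 9.16 ± 0.469 h, with an adjusted p of 0.0502 (limma) for the rhythm difference. It fell to 0.0024 without NRF ZT16 replicate 3 and to 0.0229 without the livers numbered 3. The difference was also called in the values as deposited (0.00086), with median-of-ratios scaling (0.0338) and with the length trend removed (0.00576). So it was among rows with a mean scaled count of at least 1 (0.0338) and with 0.1 added before the logarithm (0.0496). It was not called with the replicate number as a block or without the livers numbered 1 or 2. The levels differed in the fast, where DRF ZT20 held 185, 203, 194 and 143 and NRF ZT8 103, 113, 111 and 103 (log2 difference 0.74 ± 0.20, adjusted p = 0.00838, limma), a call lost without the livers numbered 1 or 2 (0.0839 and 0.0875).

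Lpin1 differed most after matching. At the start of the food phase, NRF ZT12 held 173 to 241 and DRF ZT0 49.1 to 63.9 scaled counts, 3.67-fold higher under NRF (log2 difference -1.86 ± 0.30, adjusted p = 0.000136, limma). After 4 h of food, NRF ZT16 held 42.8, 81.9, 42.8 and 66.5 and DRF ZT4 12.7, 13.9, 12.3 and 16.8 (log2 difference -1.95 ± 0.30, adjusted p = 3.53e-05, limma). In the fast the order turned, and DRF ZT16, with 81.5 to 277, lay above NRF ZT4, with 23.3 to 44.8 (log2 difference 1.75 ± 0.30, adjusted p = 5.2e-05, limma). Lpin2 was called in 5 of 6 pairs, lower under DRF in the first 2 and higher in the other 3, by at most 0.74 on the log2 scale. The pairs at 0 h and 20 h were not called once a trend with gene length was removed (adjusted p = 0.066 and 0.062, limma), and each was lost without the livers of 1 replicate number. The differences between the calls of the lipins were not tested.

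The other genes called by feeding time were Gpat4, Lpin3 and Dgat2. Gpat4 was lower under DRF after 4 h of food (128 ± 11 against 184 ± 19.6, adjusted p = 0.0122, limma) and higher in the fast (147 ± 34.1 against 80.1 ± 18.6 after 16 h, adjusted p = 4.14e-05, limma). Lpin3 went the other way, higher under DRF after 4 h of food (2.24 ± 0.112 against 1.48 ± 0.237, adjusted p = 0.0104, limma) and lower in the fast (2.88 ± 0.571 against 4.58 ± 0.60 after 20 h, adjusted p = 0.000398, limma). Dgat2 was lower under DRF after 8 h (569 ± 62.8 against 731 ± 87.3, adjusted p = 0.022, limma) and higher after 16 h (625 ± 33.9 against 428 ± 24.9, adjusted p = 0.000291, limma). The 8 h call of Dgat2 and the 4 h calls of Gpat4 and Lpin3 were each lost without the livers of at least 1 replicate number. Mogat1 was called higher under DRF in 4 of 6 pairs, of which the pairs at 0 h, 4 h and 20 h were each lost in some of these fits, and the 4 h pair also with the length trend removed (adjusted p = 0.0745, limma).

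**Figure D4:**
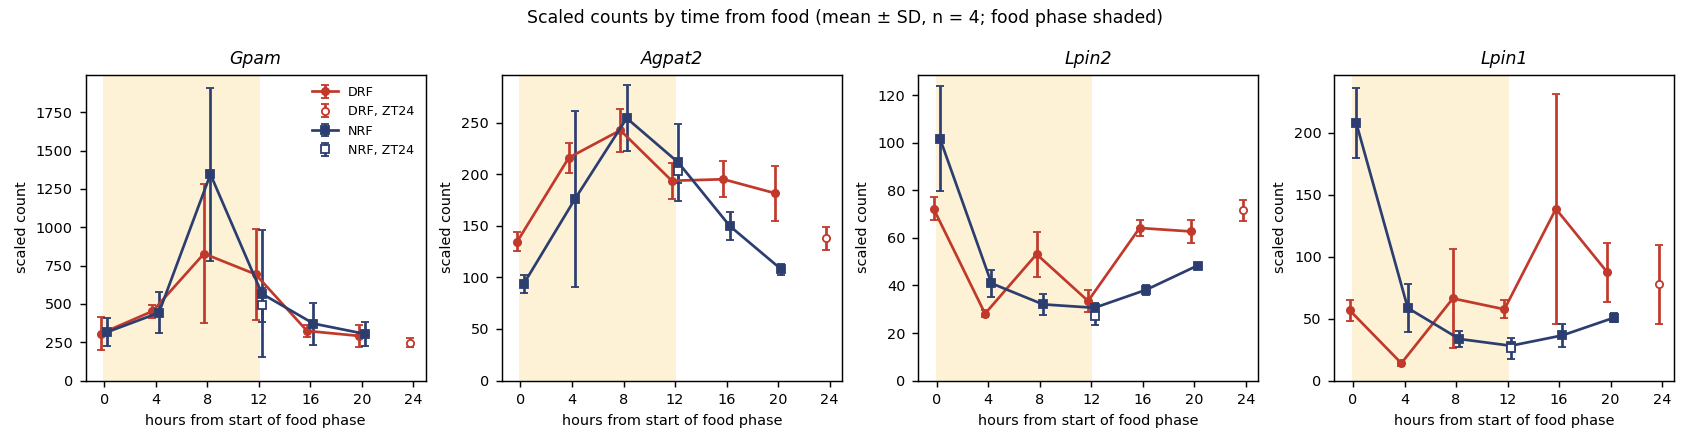
Scaled counts of Gpam, Agpat2, Lpin2 and Lpin1 (mean and SD of 4 livers, linear axis from 0) against hours from the start of the food phase, for DRF (red) and NRF (blue), with the ZT24 groups as open symbols and the food phase shaded. Both Gpam courses peak after 8 h, where the wide DRF bar includes replicate 3 at 1503, while Lpin1 and Lpin2 start from a higher NRF value at 0 h (208 and 102) and are higher under DRF at 16 h.

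Of the 5 genes rhythmic in both regimens, 4 were phase-inverted (Gpam, Agpat2, Agpat3 and Lpin2) and Lpin1 lay between the ranges. Of these 4, only Gpam kept that class in the values as deposited (9.72 h). There the shifts of Agpat3 and Lpin2 were 4.89 h and 7.996 h. The NRF rhythm of Agpat3 and the DRF rhythm of Agpat2 were not called in them (adjusted p = 0.373 and 0.0555, limma). Among all 5896 rows rhythmic in both regimens, 50.9% were phase-inverted and 24.3% phase-locked. No amplitude difference was called among these 5 genes (adjusted p = 0.0823 to 0.749, cosinor contrasts on 56 livers), where 10.2% of the 5896 rows were called, 604 by count. The lowest of these adjusted p-values was that of Agpat2 (0.0823, cosinor contrast), with amplitudes of 40.5 ± 8.83 under DRF and 73.9 ± 8.97 under NRF. For the 4 genes whose rhythm was called under NRF and not under DRF, Gpat4, Lpin3, Dgat1 and Dgat2, the fitted amplitudes were 15.0 and 48.7, 0.303 and 1.34, 0.401 and 1.09, and 59.3 and 192 scaled counts under DRF and NRF, given as a description.

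**Figure D5:**
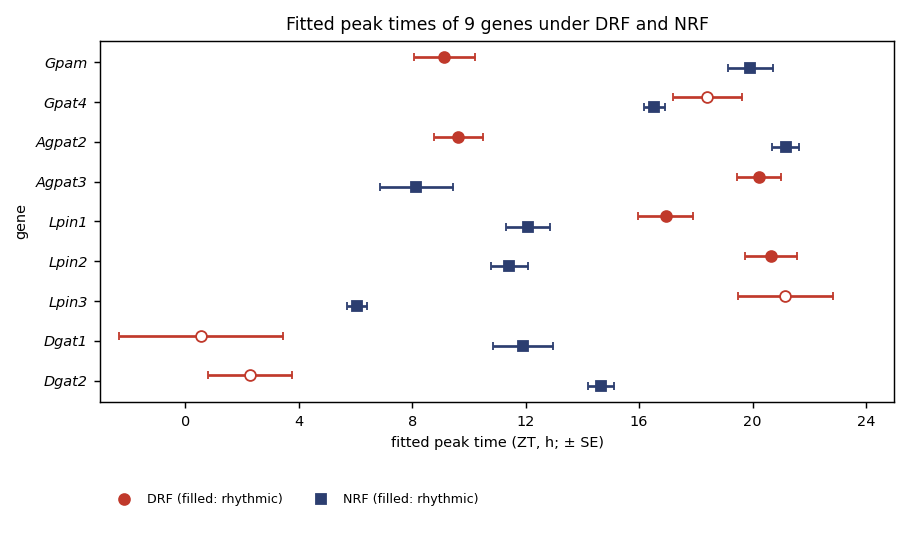
Fitted peak times (ZT, with SE) of the 9 genes other than Mogat1, under DRF (red circles) and NRF (blue squares), where filled symbols are rhythms that passed the test. Gpam and Agpat2 peak near ZT9 under DRF and ZT20 to ZT21 under NRF, and Gpat4, Lpin3, Dgat1 and Dgat2 have open DRF symbols.

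A second daily component of 12 h was called in 1 gene per regimen, Dgat2 under DRF (0.35 peak to trough on the log2 scale, adjusted p = 0.0238, limma) and Lpin3 under NRF (0.34, adjusted p = 0.0433, limma), where 4.71% and 2.02% of all rows were called. The Dgat2 call was lost in the values as deposited (0.461) and without the livers numbered 1, 2 or 4 (0.199, 0.0996 and 0.308), and the Lpin3 call with median-of-ratios scaling (0.0878), with the length trend removed (0.112), without NRF ZT16 replicate 3 (0.0958) and without the livers numbered 1, 2 or 3 (0.349, 0.0793 and 0.484). ZT24 repeats the clock time of ZT0 a day later, and 0 of the 10 genes were called between them in either regimen (limma), with 0 at an unadjusted p under 0.05, where 3.08% of all rows under DRF and 7.86% under NRF were called.

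The neighbouring steps of lipid synthesis moved as follows. Of 12 tested relatives of the acyltransferases and phosphatases, the rhythm differed by clock time in 11, against 38.9% of all rows (median 0.68 on the log2 scale, peak to trough, against 0.27 over all rows), with the widest differences in Gpat3 (2.10), Plpp3 (1.35), Lpgat1 (1.17) and Awat2 (1.13). Gpat3, another microsomal acyltransferase of the first step, peaked at ZT 23.8 h under DRF and ZT 11.6 h under NRF, and its daily mean rose under DRF (log2 difference 0.27, adjusted p = 0.0384, limma), as did those of Lpgat1, Plpp1 and Lclat1, while the other 8 did not pass the test (4.14% of all rows were called higher and 2.71% lower). Of 13 genes that supply glycerol-3-phosphate and fatty acids, 7 differed in rhythm, against 38.9% of all rows, led by the acyl-CoA synthetase Acsl4 (1.75) and followed by Acsl3 (1.45), Slc27a2 (1.38) and Acsl5 (1.37). Their daily mean rose in 3, Cd36 (log2 difference 0.55, adjusted p = 1.52e-07, limma), Slc27a5 and Gpd1l, and fell in Fabp1 (-0.44, adjusted p = 0.0426, limma). Cd36 takes up fatty acids, and it had 540 scaled counts on average under DRF and 371 under NRF.

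Of 17 genes of phospholipid synthesis, 10 differed in rhythm by clock time, against 38.9% of all rows, Chka (4.45), Selenoi (2.11), Pgs1 (1.54) and Etnk2 (1.19) the most. The daily means of Chpt1, which makes phosphatidylcholine from diacylglycerol (log2 difference 0.35, adjusted p = 3.72e-07, limma), and of Cds2 (0.20, adjusted p = 0.00521, limma) rose under DRF. Of 10 regulators of the lipins and of lipid synthesis, 9 differed in rhythm, against the same 38.9%, Srebf1 (3.61), Insig2 (3.32), Ppargc1b (2.61) and Ppara (2.31) the most. Srebf1, the sterol response factor of lipid synthesis, peaked at ZT 6.5 h under DRF and ZT 18.1 h under NRF. Ppargc1a, Insig2 and Pparg had higher daily means under DRF (0.34, 0.35 and 0.23 on the log2 scale) and Srebf1 a lower one (-0.29, adjusted p = 0.0408, limma).

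The genes with the courses most like those of the members were named by Pearson's r over the 14 group means of log2(scaled count + 1), as a description, since the means share their libraries. For Gpam these were Pnpla3 (r = 0.955), Slc6a6 (0.943) and Chrna4 (0.942), for Agpat2 Ppa1 (0.963), Sdc1 (0.951) and Arhgef19 (0.945), and for Lpin2 Pck1 (0.952), Dsc2 (0.95) and Gab1 (0.944). Pnpla3 is a lipid droplet protein and Pck1 the rate-limiting enzyme of gluconeogenesis. For Lpin1 they were Zranb1 (0.936), Lurap1l (0.916) and Fam117b (0.913), and for Mogat1 Retsat (0.938), Sult2a3 (0.937) and Sult2a2 (0.934). The highest r for Gpat4 was with Ppp2r5e (0.946), for Agpat3 with Fzd1 (0.95), for Lpin3 with Ctc1 (0.966) and for Dgat1 with Limd1 (0.876). None of the 3 nearest genes of any member was itself a member.

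Markers of other cells, summed over their lists, were compared between regimens as means over 28 livers. Kupffer cell markers averaged 666 scaled counts under DRF and 676 under NRF (5 of 5 tested, 490 to 1171 per liver), sinusoidal endothelial markers 397 and 405 (5 of 5, 338 to 475), stellate cell markers 667 and 686 (5 of 5, 551 to 823), and cholangiocyte markers 6.53 and 6.46 (4 of 4, 3.61 to 10.5). The 3 adipocyte markers tested summed to 10.5 and 9.58 (5.40 to 14.7), of which Lipe, also expressed outside fat, held most. The intestinal list, Fabp2, Vil1 and Mogat2 (3 of 3), summed to 26.4 under DRF and 20.9 under NRF (12.3 to 37.5). Fabp2 alone made up nearly all of this sum (11.6 to 36.7 per liver), with Vil1 at most 0.772. Of 4 pancreatic markers only Cela1 was tested (2.07 and 3.16). The intestinal sum and the Mogat1 level were both higher under DRF, and the part of other cells in the Mogat1 result was not tested. Of 7 hepatocyte markers 5 were tested, and their sums averaged 15830 under DRF and 17020 under NRF (13920 to 19200 per liver). The lowest group mean was at DRF ZT4 (14480).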

How the data were processed

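The authors deposited a gene table whose values are named TPM. These values were not linear in counts, so they were treated as a score: a deposited value times the gene's exon length followed a library factor times the natural logarithm of 1 plus a multiple of a whole count. The curve was fitted per library with GENCODE vM21 lengths, and in genes left out of the fit 94.18% to 98.89% of the rebuilt values lay within 0.05 of a whole number (10% by chance). Of 25415 rows, 97 were left out. For Gpam 83.9% of values lay within 0.05 and 98.2% within 0.2 of a whole number, for Dgat2 75% and 100%, and for the other members 100% within 0.05. Rebuilt totals exceeded the sequencing depth the study gives, so they are not called reads, and the depth behind a value is known only relative to other libraries. The design had named linear TPM and its tests were kept on the scaled counts, where 1 was added before the logarithm. The library protocol in the labels says that ribosomal RNA was removed and strand kept, while the molecule field says polyA RNA. The submitters' processing notes name CASAVA 1.8, featureCounts 1.5.0-p3, mm10 and GRCm38.p6, and the strand setting is not given in the sources used here. All 56 columns were assigned by name, with 0 unassigned. A deposited transcript table and a circular RNA table were not used here.

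Group means and 24-h and 12-h cosines were fitted in limma 3.58.1 (R 4.3.3) over all libraries. Peaks, amplitudes and their SEs came from cosinor fits on scaled counts with the delta method (NumPy 2.4.6, SciPy 1.17.1), with p-values adjusted over the rows rhythmic in both regimens. A filter on a mean deposited value of at least 0.1 removed 0 rows. Scripts were tested on simulated data. Replicate numbers were not treated as pairs. Over 364 pairs of libraries of different groups with the same number, the median correlation of deviations was 0.00595 (-0.383 to 0.304). Over 1092 pairs with other numbers it was -0.00227 (-0.277 to 0.375). A pairing within only some of the groups would not show in these medians. The p-values measure the spread between these animals, and the labels give no sequencing batch. Named genes were the 10 members, up to 4 genes per list with the largest called differences, and the 3 most similar courses per member, of which the nearest alone is given for Gpat4, Agpat3, Lpin3 and Dgat1. The most similar course to that of Dgat2 is not reported here. The members, lists and tests were chosen with earlier results of these data known.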

Additional observations from a re-analysis of the deposited data

Results flagged for a closer look

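Among 140 groups of 4 livers (10 genes, 14 groups), 9 held a liver whose gap to its nearest neighbour exceeded Dixon's critical value for 4 samples, which chance alone gives in about 1 in 20 groups. Of the livers taken at DRF ZT8, replicate 3 stood out in Gpam, with 1503 scaled counts against 563 to 633 in the others, and in Lpin1, with 125 against 38.8 to 53.3. At DRF ZT16, replicate 1 held 277 of Lpin1 against 81.5 to 106. At DRF ZT0, replicate 2 held 468 of Gpam against 246 to 260. The remaining livers were high by less: Gpat4 at DRF ZT12 replicate 3 (130 against 117 to 118), Agpat2 at DRF ZT24 replicate 3 (154 against 132 to 133), Lpin3 at DRF ZT20 replicate 3 (3.73 against 2.55 to 2.65), Dgat1 at NRF ZT4 replicate 2 (7.31 against 6.24 to 6.38) and Dgat1 at NRF ZT20 replicate 4 (6.73 against 5.93 to 5.96). Each of the 9 was the highest liver of its group.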

How the results depend on the processing

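Of 2677 comparisons of a member's result with its value under an alternative, 2514 kept their direction and side of the threshold, 62 gained a call and 96 lost one. Sign changes of differences called in neither fit were not counted as reversals. Leaving out the livers of each replicate number in turn, or NRF ZT16 replicate 3 alone (a choice made after seeing the data), gave 28 to 44 called single-time differences (38 with all livers), 14 to 23 feeding-matched ones (22), 1 to 3 daily mean differences (4), 0 to 3 12-h components (2), 8 to 9 NRF rhythms (9), 5 to 6 DRF rhythms (5), 9 rhythm differences by clock time in each fit, 4 to 6 by feeding time (5), and 9 to 10 any-time differences (10). The counts over all rows in these fits are not given here. Over the other alternatives the rhythm differences by feeding time numbered 5 to 7. The values as deposited, compressed by their logarithm, gave 2 calls between ZT24 and ZT0 (0 in scaled counts) and 2 phase-inverted members, Gpam and Lpin3 (4). In them the difference of Dgat2 between ZT24 and ZT0 under NRF turned to 0.098 (log2, adjusted p = 0.0018, limma). The 12-h calls fell to 1 with median-of-ratios scaling and to 1 with the length trend removed. The cause of these changes was not tested. The Dgat1 daily mean was not called with the length trend removed, without the ZT24 livers or without NRF ZT16 replicate 3 (adjusted p = 0.056, 0.06 and 0.055, limma). Leaving out that library added 12 calls and lost 3. With the replicate number as a block, the counts of calls were 38 of 70 for single times, 22 of 60 for feeding-matched pairs, 4 of 10 for daily means, 5 for DRF and 9 for NRF rhythms, and no member's call changed. Depth was known only on a relative scale, and Mogat1, with 46 to 886 recovered counts, had the least.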
